A study of Mus musculus with 4 samples.

Results

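Interferon response genes were compared between invariant natural killer T (iNKT) cells of CD4-Vα14Tg mice and of wild-type (WT) control mice. The genes came from a list of 37 names, 30 of the type I interferon type and 7 interferon-inducible GTPases, and a gene counted as measured when the array's annotation gave a probe set its symbol alone. That left 32 of the 37, namely 27 type I-type genes and 5 GTPases on 33 probe sets, out of 22180 genes with such a probe set. Dtx3l, Ifi27l2a, Gbp2 and Ifi47 lie on probe sets shared with another gene, and these 4 and Ifi44 were not analysed here. In CD4-Vα14Tg mice the CD4 promoter, which is active in many T cells besides iNKT cells, drives the transgene. The data are 4 Affymetrix arrays of total RNA, 2 per genotype, and the labels speak of frozen tissue for the extraction while naming iNKT cells as the source. Strain, age, sex, organ and sorting gate are not in the labels, which also do not say whether arrays stand for separate animals, so p-values measure only the spread between these samples.

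Type I interferons bind a receptor on nearly all cells, and Janus kinases then switch on STAT proteins that enter the nucleus with the factor IRF9 and bind interferon-stimulated response elements (ISRE). Interferon-γ, the type II interferon and a main product of iNKT cells themselves, acts through a separate receptor and a STAT dimer that binds gamma-activated sites (GAS). The type I program makes sensors and blockers of viral RNA and replication, while the GBP and IRG families of GTPases, which act on vacuoles that hold microbes, respond strongly to interferon-γ.

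No measured member passed the test between genotypes. Oasl2, Oas2, Mx2 and Usp18 read 1.41-fold to 1.55-fold higher in CD4-Vα14Tg cells, and Bst2 read lower by a log2 difference of -0.59. All 5 GTPases had means below WT, with differences from -0.039 to -0.57. The further type I-type members Isg15, Ifit1, Ifit2 and Ifit3 had differences between -0.11 and 0.17. In limma's fit over 13602 genes (threshold 0.05 after Benjamini-Hochberg adjustment), 0 of 32 members were called higher and 0 lower, while 1.95% of all genes were called, 0.61% higher and 1.34% lower. An unadjusted p under 0.05 was reached by 10 members, 6 higher and 4 lower, and by 11.7% of all genes, 4.62% higher and 7.04% lower. The difference between the type I-type genes and the GTPases was not tested.

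Letters of both response elements stand in the promoters of several members. The 7 promoters shown bring motifs of GTPases beside those of type I-type genes described further on. Irgm1, which holds ISRE matches and no GAS match, is not printed. RefSeq promoter windows (assembly GRCm38.p6, 250 bases before to 50 after an annotated start) were matched for 23 of the 32 members. The start of a window is that of an annotated transcript: in Oas3, Gbp3 and Oasl2 it lies 25, 28 and 8 bases inside the outer end of the RefSeq gene, so the last of their printed bases belong to the gene. The 150 bases before the start are printed from 5′ to 3′ on the gene's strand. Capitals mark the ISRE core (GAAA, any 2 bases, GAAA) and the GAS core (TTC, any 3 bases, GAA), each searched on both strands.
Igtp, chr11:58199406-58199555 (plus strand): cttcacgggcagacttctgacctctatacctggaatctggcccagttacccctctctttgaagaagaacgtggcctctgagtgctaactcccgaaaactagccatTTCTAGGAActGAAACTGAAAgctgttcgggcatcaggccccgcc
Irgm2, chr11:58214827-58214976 (plus strand): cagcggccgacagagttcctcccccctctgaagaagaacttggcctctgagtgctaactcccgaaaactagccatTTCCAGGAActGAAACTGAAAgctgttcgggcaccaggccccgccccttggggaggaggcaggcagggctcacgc
Gbp7, chr3:142530186-142530335 (plus strand): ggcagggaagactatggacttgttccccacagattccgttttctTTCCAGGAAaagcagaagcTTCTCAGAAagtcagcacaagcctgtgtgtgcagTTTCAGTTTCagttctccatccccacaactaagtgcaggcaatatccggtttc
Gbp3, chr3:142559894-142560043 (plus strand): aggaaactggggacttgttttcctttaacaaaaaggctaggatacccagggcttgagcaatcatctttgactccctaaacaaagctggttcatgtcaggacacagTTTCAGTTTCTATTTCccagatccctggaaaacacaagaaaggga
Bst2, chr8:71537473-71537622 (minus strand): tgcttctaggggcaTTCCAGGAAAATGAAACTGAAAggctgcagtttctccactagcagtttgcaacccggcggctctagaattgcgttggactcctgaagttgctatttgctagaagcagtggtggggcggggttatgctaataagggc
Oas3, chr5:120777660-120777809 (minus strand): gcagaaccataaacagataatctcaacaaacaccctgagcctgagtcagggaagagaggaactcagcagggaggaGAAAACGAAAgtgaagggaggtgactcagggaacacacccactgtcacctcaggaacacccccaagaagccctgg
Oasl2, chr5:114896784-114896933 (plus strand): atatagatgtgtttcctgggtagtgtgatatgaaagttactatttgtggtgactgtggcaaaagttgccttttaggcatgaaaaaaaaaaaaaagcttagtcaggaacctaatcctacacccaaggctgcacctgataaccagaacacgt
ISRE letters were found in the windows of 5 of 5 GTPases and 11 of 18 type I-type members, against 3.99% of all 27025 genes with a window. GAS letters were found for 3 of 5 GTPases, 5 of 18 type I-type members and 9.55% of all genes. Of these type I-type members only Bst2 is printed. The others are Isg20, Eif2ak2, Ifit2 and Ifi35, with differences of -0.35, -0.19, 0.072 and 0.079. Igtp and Irgm2, which are neighbours on chromosome 11, hold a GAS match (TTCTAGGAA and TTCCAGGAA) whose first base lies 11 bases before that of the same ISRE letters, GAAACTGAAA. Lined up on these letters, 103 of 120 bases were identical, the longest identical run being 38 bases. The ISRE match starts 34 bases before the start of Igtp and 64 bases before that of Irgm2. Gbp3 holds overlapping ISRE matches at the first of its 2 starts and none at the other, and in Bst2 the GAS match overlaps the first of 2 ISRE matches. Oasl2 and Oasl1, also neighbours, have neither motif in this window. A match describes letters only.

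Among the oligoadenylate synthetase genes, which answer double-stranded RNA, 4 members read above WT on both arrays. Oasl2, an oligoadenylate synthetase-like protein, measured 9.02 and 8.89 on the log2 scale in CD4-Vα14Tg cells and 8.31 and 8.36 in WT cells. The groups did not overlap, the difference was 0.62 (95% interval 0.34 to 0.90) or 1.54-fold, and the limma adjusted p was 0.0564. That p crossed the threshold with a filter at the 60th percentile (0.0394), with limma's trend and robust options (0.0374), with repeated quantile normalization (0.0417) and with median centring (0.0419), and it ran from 0.119 to 0.210 when 1 array was left out. The limma adjusted p of Oasl2 stayed above the threshold with no filter (0.0724), the mean of probe sets (0.0538) and every probe set tested (0.244). Its neighbour Oasl1, a relative known to restrain translation of Irf7, measured 7.06 and 7.16 against 6.78 and 6.75. The difference of Oasl1 was 0.34 (0.068 to 0.62, limma adjusted p = 0.278).

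Oas2, which makes the 2-5A messenger that activates RNase L, measured 8.66 and 9.003 against 8.07 and 8.33. Its difference of 0.63 (0.25 to 1.01, limma adjusted p = 0.136) was the highest of the members, but the CD4-Vα14Tg arrays stood 0.35 apart and the value ran from 0.46 to 0.80 when 1 array was left out. Oas3, a further 2-5A synthetase and the neighbour of Oas2, measured 8.54 and 8.75 against 8.37 and 8.20, a difference of 0.36 (0.045 to 0.68, limma adjusted p = 0.333). All 4 genes were thus higher on each CD4-Vα14Tg array than on either WT array, a pattern that 15.7% of all genes showed in this direction.

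The other nucleic acid sensors of the list lay nearer to WT. Eif2ak2, the kinase PKR that stops translation on double-stranded RNA, measured 7.93 and 7.85 against 8.11 and 8.06, a difference of -0.19 (-0.47 to 0.082). Zbp1, a Z-nucleic acid sensor of cell death, measured 9.94 and 10.10 against 9.98 and 10.10, a difference of -0.016 (-0.31 to 0.28) whose sign changed with normalization. The RNA helicase sensors Ifih1 (MDA5), Dhx58 (LGP2) and Ddx58 (RIG-I) had differences of 0.21, 0.23 and 0.036, none past the threshold (lowest limma adjusted p = 0.592). Ifih1 measured 8.52 and 8.58 against 8.34 and 8.34, and Dhx58 measured 7.33 and 7.55 against 7.19 and 7.24, so both lay above WT on each array. Ddx58 measured 9.18 and 9.43 against 9.15 and 9.38, where the arrays of a genotype differed by more than the genotypes did.

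Virus-blocking effectors went both ways. Mx2, a dynamin-like GTPase against viruses, measured 6.35 and 6.50 in CD4-Vα14Tg cells and 5.88 and 5.90 in WT cells. The groups did not overlap, and the difference was 0.54 (0.25 to 0.82, limma adjusted p = 0.0929). Its relative Mx1 lay at the edge of detection, at 4.83 and 4.61 against 4.73 and 4.86, and was the 1 member not above the filter level (4.65 to 4.69 on the arrays) on all 4 arrays.

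Bst2, or tetherin, which holds budding virus at the membrane, measured 9.22 and 9.26 against 9.84 and 9.80. The groups did not overlap, and the difference was -0.59 (-0.86 to -0.32, limma adjusted p = 0.0583). Its adjusted p was 0.0407 with the 60th percentile filter, 0.0355 with the trend and robust options, and from 0.168 to 0.199 when 1 array was left out. The limma adjusted p stayed above the threshold with repeated quantile normalization (0.0739), median centring (0.0737) and no filter (0.0739). The same held with the mean of probe sets (0.0556) and every probe set tested (0.239). Bst2 also marks plasmacytoid dendritic cells. Of 9 other markers of these cells 6 were above the filter, Ccr9 rose, Irf8 fell, Siglech lay below the filter on all 4 arrays, and the summed linear level was 629 and 645 in CD4-Vα14Tg and 599 and 569 in WT cells. Without Ccr9 that sum was 491 and 498 against 554 and 513, so its direction turned on this 1 marker, which was singled out after its values were seen. Their part in the Bst2 value was not tested.

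Isg20, an exonuclease of RNA, measured 7.75 and 7.88 against 8.05 and 8.28, a difference of -0.35 (-0.66 to -0.036, limma adjusted p = 0.352) without overlap. Rsad2, or viperin, measured 7.25 and 7.16 against 7.34 and 7.48, a difference of -0.20 (-0.49 to 0.084), again without overlap. The tetratricopeptide proteins Ifit1, Ifit2 and Ifit3, which bind viral RNA or each other, overlapped between genotypes. Ifit1 measured 8.48 and 8.96 against 8.39 and 8.71, a difference of 0.17 (-0.28 to 0.62). Ifit2 measured 6.17 and 6.38 against 6.03 and 6.37, a difference of 0.072 (-0.29 to 0.43), and Ifit3 measured 6.38 and 6.59 against 6.63 and 6.49, a difference of -0.070 (-0.38 to 0.24). Samd9l, a growth and virus restriction factor, had -0.066 (-0.34 to 0.21), and Trim30a, a regulator of innate signalling from a cluster of similar Trim genes, had 0.10 (-0.25 to 0.46). Of the 10 genes of this group, 1 lay above WT without overlap and 4 below, against 15.7% and 23.4% of all genes.

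The ISG15 system showed different values for the modifier and for its protease. Usp18, which removes ISG15 from proteins and blocks signalling at the type I receptor, measured 8.31 and 8.65 against 7.84 and 8.12. The groups did not overlap, and the difference was 0.50 (0.12 to 0.88, limma adjusted p = 0.251). Isg15 itself, the ubiquitin-like modifier, measured 7.87 and 8.01 against 8.08 and 8.02, a difference of -0.11 (-0.40 to 0.17, limma adjusted p = 0.854).

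The remaining type I-type genes lay close to WT. Stat2, the STAT protein of the type I complex, measured 7.94 and 8.33 against 8.12 and 8.37, a difference of -0.11 (-0.50 to 0.28). The PARP family genes Parp9 and Parp14 had -0.039 (-0.36 to 0.28) and -0.20 (-0.54 to 0.14). Rtp4, a receptor transporter protein with antiviral activity, measured 9.20 and 9.44 against 8.88 and 9.33, a difference of 0.21 (-0.20 to 0.63). Xaf1, a cell death factor, measured 8.63 and 8.69 against 8.48 and 8.56, a difference of 0.14 (-0.14 to 0.41). Ifi35 had 0.079 (-0.22 to 0.38) on the brighter of its 2 probe sets and 0.040 on the dimmer one. The lowest limma adjusted p of these 6 genes was 0.724.

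**Figure D1:**
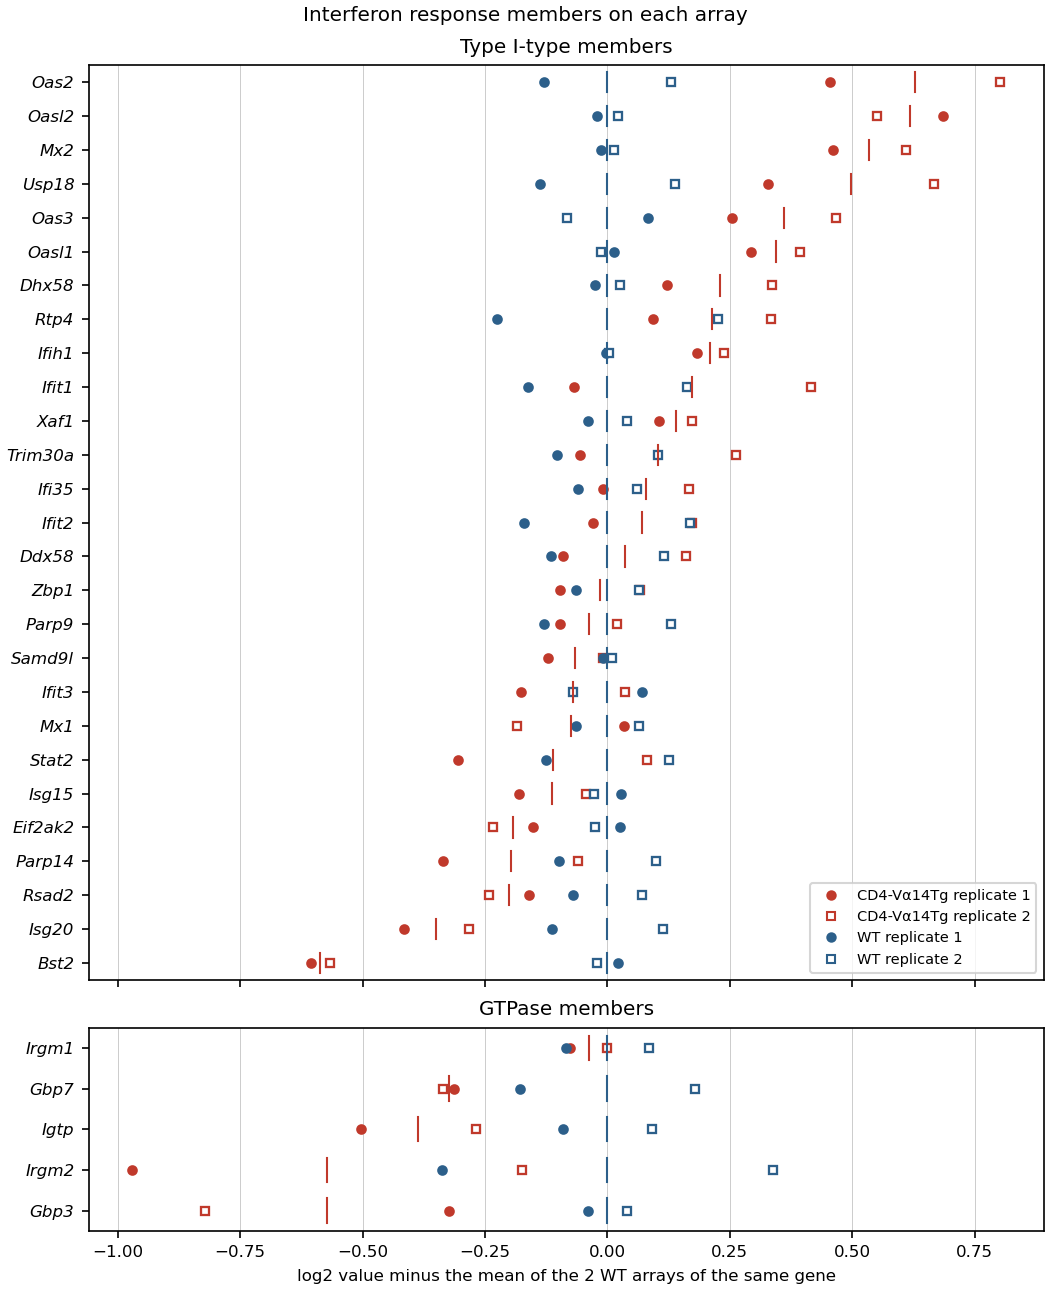
Value of each of the 32 members on each array, as log2 value minus the mean of the 2 WT arrays of that gene (x axis), with type I-type members above and GTPases below, ordered by difference. Filled circles are replicate 1, open squares replicate 2, and short lines the mean of 2 arrays: Oas2, Oasl2 and Mx2 stand at the top and Bst2 at the foot of the type I-type genes, each without overlap, and the means of all 5 GTPases lie left of WT (Irgm1 by -0.039, a sign that turned with median centring).

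All 5 GTPases had means below WT, as did 55.9% of all genes. Each CD4-Vα14Tg array read lower than either WT array for 3 of the 5, a pattern that 23.4% of all genes showed in this direction. Gbp3, a guanylate-binding protein of the chromosome 3 cluster, measured 6.33 and 5.84 in CD4-Vα14Tg cells and 6.62 and 6.70 in WT cells. Its difference was -0.57 (-0.99 to -0.16, limma adjusted p = 0.217), with the lowest value on CD4-Vα14Tg replicate 2, and it ran from -0.82 to -0.32 when 1 array was left out. Gbp7, its neighbour in that cluster, measured 9.93 and 9.91 against 10.07 and 10.43, a difference of -0.32 (-0.67 to 0.023, limma adjusted p = 0.472) that ran from -0.50 to -0.15 in the same way. Igtp, an IRG protein also named Irgm3, measured 7.98 and 8.22 against 8.40 and 8.58, a difference of -0.39 (-0.71 to -0.061, limma adjusted p = 0.308).

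Irgm2, a regulator of the same family and the neighbour of Igtp, measured 5.91 and 6.71 against 6.55 and 7.22. Its difference of -0.57 (-1.27 to 0.13, limma adjusted p = 0.562) had the widest interval of the members, since the arrays stood 0.80 apart in CD4-Vα14Tg cells and 0.68 apart in WT cells, and the groups overlapped. It ran from -0.97 to -0.17 when 1 array was left out. Irgm1, a further regulator, measured 7.58 and 7.65 against 7.57 and 7.74, a difference of -0.039 (-0.33 to 0.25, limma adjusted p = 0.972). Its sign turned positive with median centring and when 1 of the arrays was left out. The median over the 5 genes was -0.39, while the median of all 13602 genes was -0.022. Without WT replicate 2 the GTPase median was -0.24, and without WT replicate 1 it was -0.50.

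Other GTPases of these families were measured as well. Of 13 with a probe set of their own 7 were above the filter, and all 7 had means below WT. Of the 6 under the filter, where values lie near background, 5 had means above WT. None of the 7 was called by limma, and 4 reached an unadjusted p under 0.05, against 7.04% of all genes in this direction. Gbp8 measured 8.92 and 8.90 against 9.27 and 9.53, a difference of -0.49 (-0.80 to -0.17, limma adjusted p = 0.161). Gbp9 measured 9.37 and 9.40 against 9.76 and 9.98, a difference of -0.48 (-0.79 to -0.18, limma adjusted p = 0.148). Gm12250, the gene of the IRG protein Irgb10, measured 7.39 and 7.97 against 8.15 and 8.56, a difference of -0.67 (-1.19 to -0.16, limma adjusted p = 0.252). Gbp5 had -0.47, and Gbp4 and Iigp1 had -0.15 and -0.14, of which Gbp4 turned positive when 1 of the arrays was left out.

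Together with the 5 members, 12 of 12 tested GTPases had a mean below WT, against 55.9% of all genes, with a median of -0.43. For 8 of them each CD4-Vα14Tg array read lower than either WT array, against 23.4% of all genes. GBP genes resemble each other closely, so probes of 1 gene may read RNA of another, and the 12 values are not independent.

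**Figure D2:**
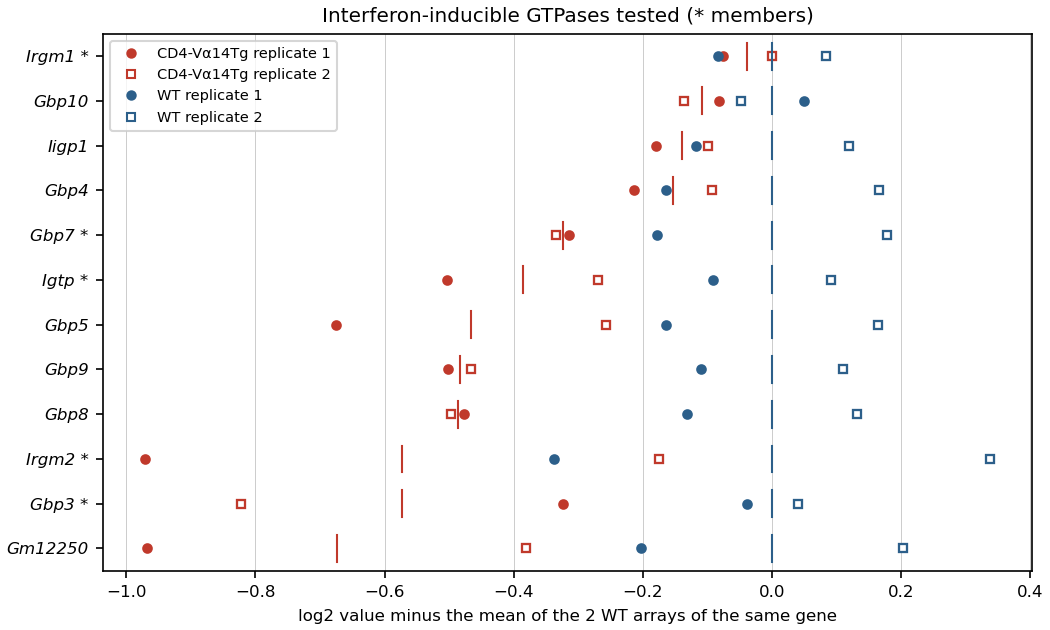
The 12 tested GTPase genes, members marked with an asterisk, as log2 value minus the mean of the 2 WT arrays (x axis). Filled circles are replicate 1, open squares replicate 2, and short lines the mean of 2 arrays: every CD4-Vα14Tg mean lies left of WT, from -0.039 in Irgm1, whose sign turned with median centring, to -0.67 in Gm12250.

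The precision of the arrays sets what these values can show. The 95% interval of the difference lay within a 2-fold change either way for 30 of 32 members, the exceptions being Oas2 (up to 1.01) and Irgm2 (down to -1.27), and for 96.1% of all genes. The median size of the difference was 0.20 over the members and 0.11 over all genes. Single arrays of 1 genotype differed by a median of 0.19 (CD4-Vα14Tg) and 0.15 (WT) over the members, and by 0.141 and 0.139 over all genes. The former compares means of 2 arrays, which vary less than single arrays, so these sizes are not on the same footing. Groups did not overlap for 18 of 32 members, 9 in each direction, against 39.1% of all genes. The difference was above 0 for 15 of the 32 members and for 43.9% of all genes.

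Most members read higher on replicate 2 than on replicate 1 in both genotypes. This held for 26 of 32 members in CD4-Vα14Tg cells and 26 of 32 in WT cells, against 51.1% and 55.6% of all genes. The median of the 27 type I-type differences, 0.072, moved with the arrays used. Without CD4-Vα14Tg replicate 1 it became 0.17, and leaving out CD4-Vα14Tg replicate 2 gave -0.056. Leaving out WT replicate 1 gave -0.014, and leaving out WT replicate 2 gave 0.15. Of the 32 members, 20 kept their sign whichever array was left out, and 12 changed it at least once, 11 of them type I-type genes.

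**Figure D3:**
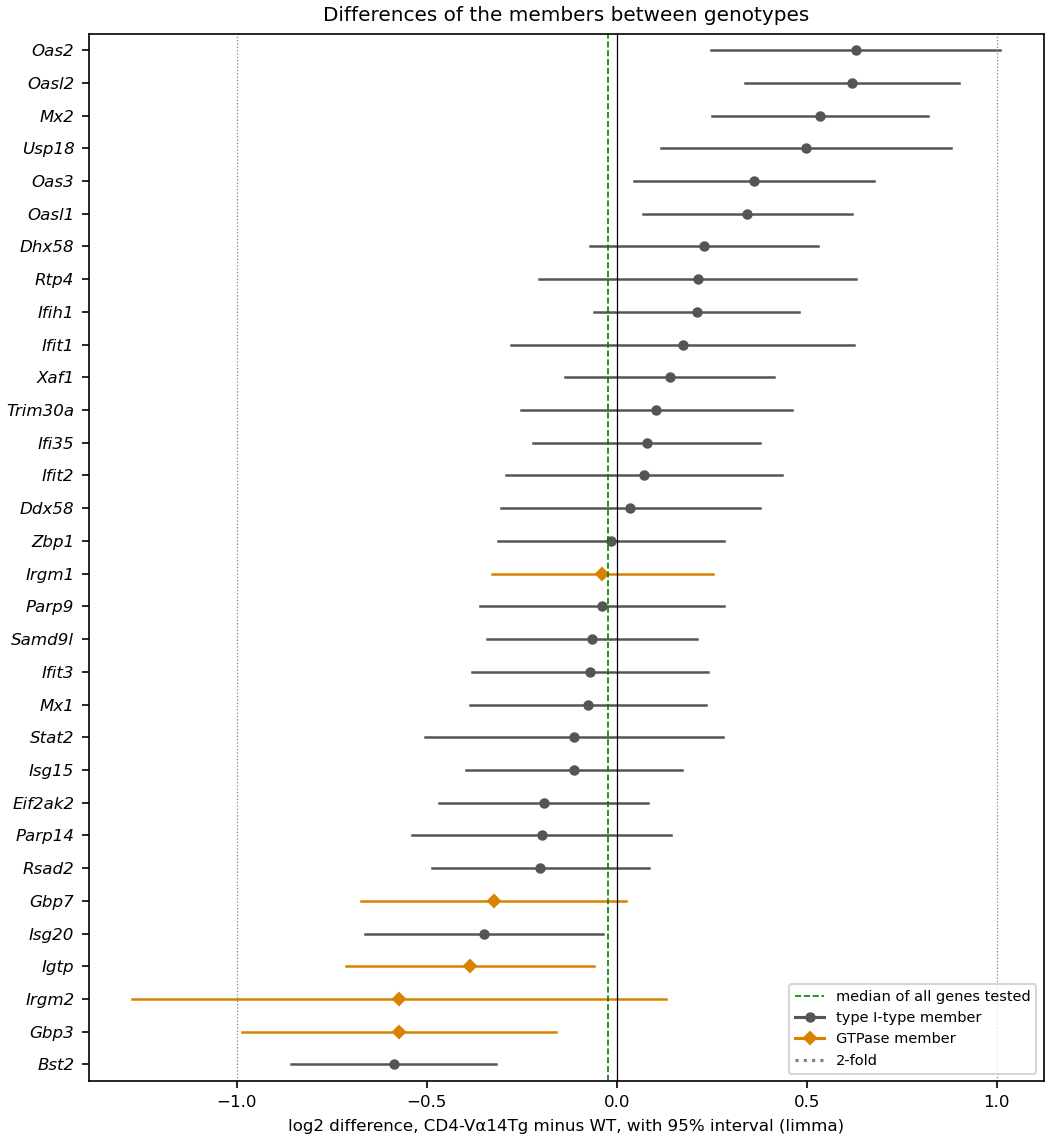
Difference between genotypes for each member, CD4-Vα14Tg minus WT on the log2 scale (x axis), with limma's 95% interval, beside the median of all 13602 genes (dashed) and the 2-fold bounds (dotted). Type I-type members are circles and GTPases diamonds: 8 of the 27 type I-type intervals and 2 of the 5 GTPase intervals leave out 0 before adjustment. So do the intervals of 11.7% of all genes. Of the 8, 6 lie above 0 and 2 below, and the 2 of the GTPases lie below.

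Genes upstream of the response were compared as well, and 3 of them passed the test between genotypes along with Irf8. Ifng fell 4.27-fold, from 9.70 and 9.32 in WT to 7.79 and 7.05 in CD4-Vα14Tg cells (log2 difference -2.09, -2.67 to -1.52, limma adjusted p = 0.00889). Ifngr1, the ligand-binding chain of the interferon-γ receptor, fell 2.19-fold from 9.95 and 10.26 to 8.96 and 8.98 (limma adjusted p = 0.0108). Ifngr2, the signalling chain, rose 2.10-fold from 6.82 and 6.63 to 7.88 and 7.71 (limma adjusted p = 0.0108). No group overlapped another in these 3 genes. Their calls held when any 1 array was left out (limma adjusted p at most 0.0476), and all 3 were lost when every probe set of the array was tested without a filter (from 0.114 to 0.136).

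The type I receptor chains Ifnar1 and Ifnar2 had differences of -0.29 (-0.59 to 0.018, limma adjusted p = 0.467) and -0.26 (-0.56 to 0.049, limma adjusted p = 0.542). Among the kinases, Tyk2, which serves the type I receptor, had -0.36 (-0.67 to -0.040, limma adjusted p = 0.344), and Jak2 and Jak1 had -0.24 and -0.028. Stat3 had -0.051, and Irf9, the DNA-binding partner of the type I complex, had 0.080 (-0.24 to 0.40). Of the 9 tested receptor and signalling genes, 1 rose, 1 fell and 7 did not pass, where 0.61% of all genes rose and 1.34% fell. Of 20 interferon genes with a probe set of their own 11 lay below the filter, Ifnb1 among them at 2.98 to 3.18. Ifng alone passed of the 9 tested, a fall, as called for 1.34% of all genes. The interferon-α genes are similar copies, so a probe set of 1 may read RNA of another, which was not tested. Their CD4-Vα14Tg means ran from 2.65 for Ifna13 to 7.37 for Ifna4, which does not tell whether a probe set reads 1 gene alone.

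**Figure D4:**
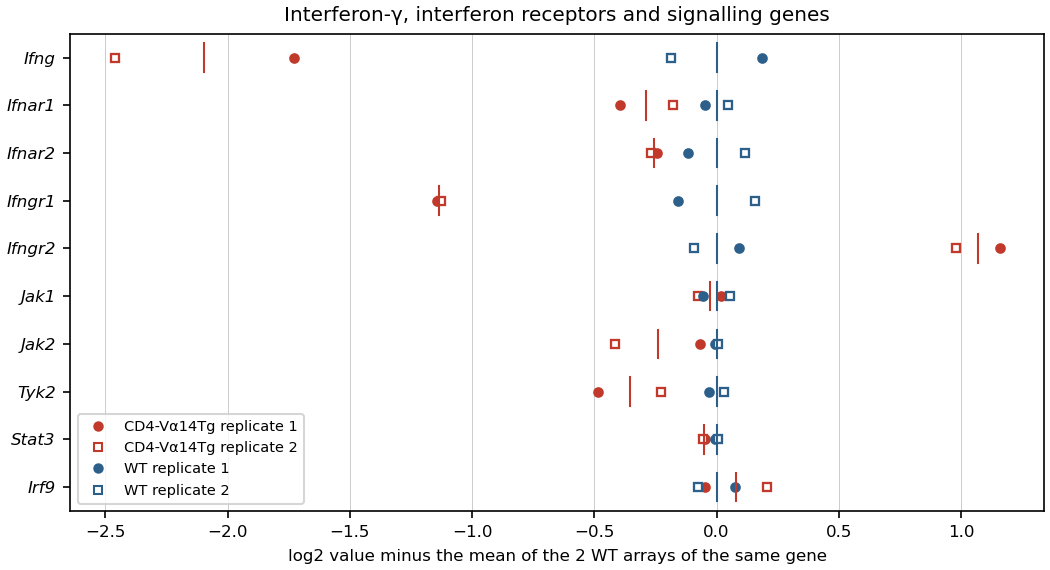
Interferon-γ, receptor chains and signalling genes on each array, as log2 value minus the mean of the 2 WT arrays (x axis). Filled circles are replicate 1, open squares replicate 2, and short lines the mean of 2 arrays: the differences are -2.09 for Ifng, -1.13 for Ifngr1 and 1.07 for Ifngr2, and the others run from -0.36 to 0.080.

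Of 6 interferon regulatory factors, Irf8 fell, as did 1.34% of all genes, and the other factors did not pass. Irf8, a factor of myeloid and dendritic cells, measured 5.35 and 5.31 against 6.19 and 5.996 (1.69-fold, limma adjusted p = 0.0310), which was not significant when any 1 array was left out (0.0636 to 0.126) or with the mean of its probe sets (0.254). Irf7, the amplifier of type I responses, had 0.27 (-0.0071 to 0.55, limma adjusted p = 0.445). Irf1, a main target of interferon-γ, measured 9.90 and 9.38 against 10.37 and 9.96, a difference of -0.52 (-1.01 to -0.034, limma adjusted p = 0.382). Irf3, Irf4 and Irf2 had -0.27, 0.13 and -0.040. Among 11 sensors and adaptors that induce interferon, 0 were called by limma and 0 reached an unadjusted p under 0.05. Of all genes 1.95% and 11.7% did so. Ikbke had 0.34 and Mavs 0.17. Among 8 negative regulators 0 were called by limma and 3 reached an unadjusted p under 0.05, all below WT, against 7.04% of all genes in this direction. These were Cish at -0.60, Socs1 at -0.49 and Ptpn6 at -0.40.

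A wider list of 55 tested type I response genes had a median of -0.015, with 27 differences above 0 and 28 below. It held 0 rises and 3 falls by limma, against 0.61% and 1.34% of all genes: Ifi204, Ifitm2 and Ifitm3. Ifi204, a DNA sensor of the p200 family, measured 3.60 and 3.55 against 4.84 and 4.94 (limma adjusted p = 0.00326). Ifitm2 and Ifitm3 are membrane proteins that block virus entry. Ifitm2 measured 3.89 and 3.41 against 5.17 and 4.92 (limma adjusted p = 0.0127), and Ifitm3 measured 5.47 and 5.48 against 6.54 and 6.30 (limma adjusted p = 0.0169). Ifi204 and Ifitm2 were below the filter level on both CD4-Vα14Tg arrays and passed it through WT alone. For Ifitm3 the adjusted p was 0.0633, 0.0610 and 0.0594 when CD4-Vα14Tg replicate 1, CD4-Vα14Tg replicate 2 or WT replicate 1 was left out. When every probe set was tested, Ifi204 passed (0.0434) and Ifitm2 and Ifitm3 did not (0.155 and 0.138). Ifitm1, of the same family as Ifitm2, measured 4.55 and 4.26 against 5.89 and 5.21, a difference of -1.14 (-1.68 to -0.61, limma adjusted p = 0.0603), and it too was below the filter level on both CD4-Vα14Tg arrays. Slfn5, a Schlafen family gene, had 0.76 (0.35 to 1.17, limma adjusted p = 0.0989), and Samhd1, a dNTP hydrolase, had 0.47 (0.20 to 0.74, limma adjusted p = 0.121).

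In the list of type II targets and antigen processing genes 16 were tested and 0 were called by limma, with a list median of -0.077. An unadjusted p under 0.05 was reached by 3, all below WT, against 7.04% of all genes in this direction. Icam1, an adhesion molecule, had -0.79 (-1.24 to -0.34, limma adjusted p = 0.115). Cxcl10, a chemokine for CXCR3, had -0.68 (-1.07 to -0.28, limma adjusted p = 0.123). Nlrc5, the transactivator of MHC class I genes, had -0.57 (-0.88 to -0.26, limma adjusted p = 0.100). Psme2, Ciita and Psmb10 had 0.26, -0.29 and -0.19, but Ciita was below the filter level on both CD4-Vα14Tg arrays and passed it through WT alone.

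Of 13602 genes tested 83 were called higher and 182 lower. The total of 265 was 169, 166 and 166 when CD4-Vα14Tg replicate 1, CD4-Vα14Tg replicate 2 or WT replicate 2 was left out. All 9 T and iNKT markers were above the filter, with Zbtb16 at 11.08 to 11.39 and Cd3e at 11.95 to 12.45. Limma called 0 of them, and 1 reached an unadjusted p under 0.05, against 1.95% and 11.7% of all genes. Of 9 monocyte and macrophage markers 3 were above the filter, with a summed linear level of 294 and 299 in CD4-Vα14Tg and 319 and 330 in WT cells. Cd68 was the brightest of them, with a difference of -0.32 (limma adjusted p = 0.401), so this sum leans on 1 marker. C1qc and C1qa had -0.23 and 0.15. Of 6 conventional dendritic cell markers 3 were above it, with 1719 and 1589 in CD4-Vα14Tg and 2327 and 1816 in WT cells. That sum was mostly Cd209a, also singled out after its values were seen, and without it the level was 123 and 113 against 140 and 120. Of 6 B cell markers 2 were above it, with 142 and 146 in CD4-Vα14Tg and 170 and 136 in WT cells. No neutrophil marker of 5 was above it, with 77.9 and 80.3 in CD4-Vα14Tg and 86.1 and 65.8 in WT cells, and 1 of 2 CD8 markers was, with 60.4 and 69.2 in CD4-Vα14Tg and 63.1 and 70.3 in WT cells. Of 3 NK cell markers 2 were tested, and limma called both lower, as it did 1.34% of all genes. These were Klrb1b at -1.66 and Ncr1 at -0.90. Ncr1 was below the filter level on both CD4-Vα14Tg arrays and passed it through WT alone. Eomes, under the filter on all 4 arrays, lay above WT by 0.19 without overlap. The summed level of the 3 was 67.5 and 66.7 in CD4-Vα14Tg and 129 and 154 in WT cells. The part of other cells in the interferon values was not tested, and fewer cells that express a gene and less RNA per cell cannot be told apart.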

How the data were processed

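RNA of iNKT cells was measured on 4 arrays, 2 per genotype. The deposited log2 values, 1 per probe set and array, were made by the authors with RMA (which includes quantile normalization, so a shift shared by all genes is removed) and Affymetrix Power Tools, per the submitters' processing notes. Their versions, options and build: not given in the sources used here. Probe sets took their gene from the platform annotation (23521 with 1 symbol, 1814 with several, 16010 with none of 41345), and the probe set with the highest mean stood for a gene. A gene was tested if at or above the 40th percentile on at least 2 arrays. Genotypes were fitted with limma (version 3.58.1, R version 4.3.3; lmFit, eBayes, two-sided), with Benjamini-Hochberg adjustment over 13602 genes. The number of arrays limits the precision. All members are named, and of each further list genes past the test and then those of highest moderated t, up to 6 (all receptor and signalling genes). Members and lists were chosen with earlier results of these data known. Alternatives left out each array, added a replicate block, changed the filter, normalization, variance model or probe set, or tested all probe sets. The fit was tested on simulated data. Tables used pandas 2.3.3 under Python 3.11.15.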

Additional observations from a re-analysis of the deposited data

How the results depend on the processing

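The count of called genes, 265, was 166 to 221 when 1 array was left out, 674 with the replicate block and 112 (of probe sets) when all probe sets were tested, and within 1.5 times in the other settings. Type I-type members called, 0 in the reported fit, were 2 with the 60th percentile filter and 2 with trend and robust options (Oasl2 and Bst2), and 1 with repeated quantile normalization and 1 with median centring (Oasl2). In the same order, these settings called 314 of 9166, 320 of 13602, 261 of 13602 and 320 of 13602 genes in all. The labels do not say that replicate numbers pair arrays, and deviations of same-numbered arrays correlated at 0.26 over 13602 genes and at 0.52 over the 32 members. With the replicate block 5 type I-type members (Oasl2, Oas2, Mx2, Bst2 and Usp18) and 1 GTPase (Irgm2) passed, where 674 of all 13602 genes did. Beyond the members, calls were gained for Irf1 (0.0405), Ifitm1 (0.00209), Slfn5 (0.00748), Gm12250 (0.0150), Nlrc5 (0.0272), Icam1 (0.00722) and Cxcl10 (0.0165), with limma adjusted p in parentheses. The GTPase median, -0.39, ran from -0.50 to -0.24 and the type I-type median from -0.056 to 0.17 when 1 array was left out. Signs changed with repeated quantile normalization for Zbp1 (0.030) and Jak1 (0.000375), and with median centring for Zbp1 (0.026), Parp9 (0.0033), Irgm1 (0.0033), Jak1 (0.014) and Irf2 (0.0018). When 1 array was left out signs changed for 22 of 83 genes followed: the members Zbp1 (-0.097 to 0.066), Ifit1 (-0.069 to 0.42), Ifit2 (-0.098 to 0.24), Ifit3 (-0.18 to 0.037), Mx1 (-0.18 to 0.035), Trim30a (-0.056 to 0.26), Ddx58 (-0.090 to 0.16), Stat2 (-0.30 to 0.081), Parp9 (-0.17 to 0.091), Rtp4 (-0.014 to 0.44), Ifi35 (-0.0090 to 0.17) and Irgm1 (-0.12 to 0.046), and beyond the members Irf9 (-0.046 to 0.21), Jak1 (-0.082 to 0.026), Irf4 (-0.047 to 0.30), Irf2 (-0.18 to 0.096), Aim2 (-0.026 to 0.25), Trim25 (-0.039 to 0.18), Sting1 (-0.046 to 0.16), Ptpn2 (-0.38 to 0.046), Pias1 (-0.074 to 0.27) and Gbp4 (-0.32 to 0.012). Of 988 pairs of gene and setting, 914 kept direction and side of the threshold. The cause of these changes was not tested. Signal near background limits the dim genes.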
